A study of Schizosaccharomyces pombe with 8 samples.

Results

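The 10 genes described here encode heat shock proteins and chaperones of the fission yeast Schizosaccharomyces pombe. They were chosen by their identifiers among the 5129 protein-coding genes of the deposited table, with earlier results of these data known. They are ssa1, ssa2, sks2 and bip1 of the Hsp70 family, hsp90 and its partner sti1, the Hsp40 gene mas5, the disaggregase gene hsp104, and the small heat shock protein genes hsp16 and hsp9. All 10 passed the filter on low values, which left 5128 genes for testing. ChIP-seq, in which chromatin fragments recovered by an antibody are sequenced, used antibodies against histone H3 acetylated on lysine 14 (H3K14ac), against H4 acetylated on its N-terminal lysines (H4ac) and against histone H3 itself. The cells of all libraries were of the wild-type strain YAM2394, which the labels give no further genotype, and were fixed with formaldehyde during exponential growth, with no heat treatment stated. Each antibody has 2 libraries that the labels call biological replicates, and 2 libraries of input chromatin were not analysed here. The study asked how the acetylation of gene promoters differs between genes with and without an antisense noncoding RNA.

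Chaperones hold unfolded proteins in a state from which they can fold, and Hsp70 with its Hsp40 helpers, Hsp90 and the Hsp104 disaggregase hand substrates on to one another. Many of these genes are transcribed in growing cells and more strongly after heat shock, when the heat shock factor Hsf1 binds inverted repeats of the letters GAA upstream of them. Histone acetylation of the kind measured here is usually found at transcribed genes, where nucleosomes can also be fewer.

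Every value below is a tag density, the number of sequenced fragments over a gene divided by its length in nt, scaled by the authors with 1 factor for each library. The median gene had 1.23 to 1.24 tags per nt in each of the 6 libraries and held 2325 to 2608 tags, and the 10 genes held between 211 tags (hsp9 in H3K14ac replicate 2) and 3996 tags (ssa1 in H4ac replicate 1). Ratios are differences of log2 densities after adding 0.01 tags per nt, which understates the change of genes of low density. Because each library has its own factor, a log2 ratio of 0 marks a gene with equal scaled densities in both kinds of library and not an absolute amount of acetylation. A ratio was called when the adjusted p of limma, fitted on all 5128 genes with Benjamini-Hochberg adjustment, was under 0.05. These p-values and SEs rest on 1 spread per gene, pooled over the 2 libraries of each antibody and drawn toward a trend over all genes. They do not measure the spread of a single antibody on its own, and counting error is only a part of the pooled spread.

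The sequences around the GAA repeats are shown because they are what these promoters are known for. They were read from the RefSeq assembly ASM294v3, in which 99.9% of 5118 coding sequences of the table begin with ATG at the positions that the table gives. The 300 nt upstream of each gene start were searched on both strands for the repeat pairs GAANNTTC and TTCNNGAA, which overlap where repeats run on. At least one pair occurred upstream of 6 of the 10 genes, against 19.8% of 5117 promoters of the same length. A triple repeat, which is GAANNTTC followed by NNGAA or its reverse complement, occurred upstream of ssa1 and ssa2, against 17 promoters in all (0.332%). The repeats are in capitals, with 20 nt on each side, and each sequence is written in the direction of its gene.
ssa1 (chrI:2297990-2298042, minus strand): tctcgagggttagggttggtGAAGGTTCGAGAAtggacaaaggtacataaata
ssa2 (chrIII:2056964-2057016, plus strand): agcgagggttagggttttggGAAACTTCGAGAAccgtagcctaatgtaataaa
hsp90 (chrI:3891169-3891216, minus strand): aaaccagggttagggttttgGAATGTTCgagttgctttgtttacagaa
hsp16 (chrII:2661058-2661105, minus strand): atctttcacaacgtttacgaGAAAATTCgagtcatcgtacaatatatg
sti1 (chrIII:1263851-1263898, minus strand): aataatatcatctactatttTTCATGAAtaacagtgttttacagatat
bip1 (chrI:1185534-1185581, minus strand): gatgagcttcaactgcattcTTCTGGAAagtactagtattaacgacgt

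The triple repeat began 41 nt upstream of the ssa1 start and 100 nt upstream of the ssa2 start, and ssa1 has a separate TTCNNGAA pair 72 nt upstream, outside the stretch shown. The pair lay 39 nt upstream of hsp90, 93 nt upstream of hsp16, 162 nt upstream of sti1 and 64 nt upstream of bip1. In the windows of hsp104, hsp9, mas5 and sks2 these letters were not found. The letters TGACGT, the core of sites of Atf1-type stress factors, occurred upstream of ssa2 alone among the 10 genes, against 5.30% of all promoters. A match of letters is a description of the sequence and not evidence of a bound factor.

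The 10 genes did not share 1 chromatin state. For H3K14ac against H3, 3 of the 10 genes were higher (ssa2, hsp90 and mas5), against 47.4% of all genes tested, and 7 were lower, against 45.9%. For H4ac against H3, 4 were higher (ssa1, ssa2, hsp90 and mas5), against 47.1% of all genes, 5 were lower (hsp9, hsp16, sti1, bip1 and hsp104), against 45.5%, and sks2 was not called. The median log2 ratio of H3K14ac/H3 over the 10 genes was -0.12 and that of H4ac/H3 was -0.06, beside 0.01 for each over all genes. The spread between the 10 genes was wide, with an SD of 0.78 in H3K14ac/H3 (0.82 over all genes) and an SD of 1.15 in H4ac/H3 (0.80 over all genes). Both ratios share the H3 libraries, so they are given side by side and not as separate evidence.

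Set directly against each other, H3K14ac and H4ac differed at most of these genes. H3K14ac was lower than H4ac at 8 of the 10 genes, against 36.6% of all genes tested, was higher at 1 (hsp16), against 32.9%, and was not called at hsp9. The median log2 H3K14ac/H4ac was -0.30 over the 10 genes and -0.01 over all genes. No H3 library enters these ratios, but all 6 libraries set the spread behind their calls. With quantile normalization, which forces the libraries to 1 distribution, the lower calls of sks2 and bip1 were lost. The lowest value of all 5128 genes was that of ssa2, and hsp90 stood at rank 6 from the lowest, hsp104 at rank 45 and ssa1 at rank 113.

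**Figure D1:**
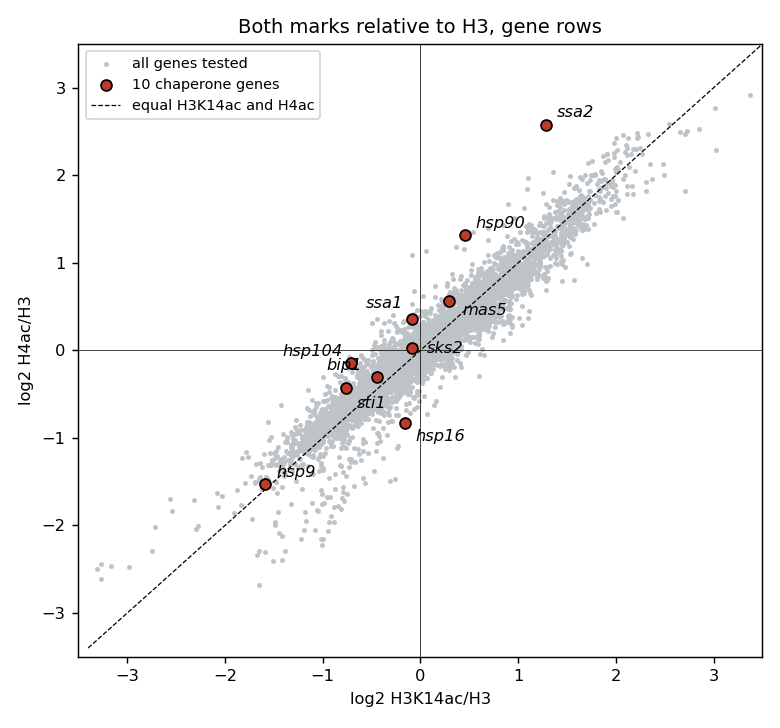
Log2 H4ac/H3 (vertical axis) against log2 H3K14ac/H3 (horizontal axis) for each gene tested (grey) and for the 10 chaperone genes (red, named); genes beyond the axes are not drawn, and the dashed line marks equal H3K14ac and H4ac. ssa2 (1.28, 2.58) and hsp90 (0.46, 1.32) lie far above the line, hsp16 (-0.16, -0.83) lies below it, and hsp9 (-1.59, -1.53) lies at the low end of both axes.

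Among the Hsp70 genes, ssa2 was the extreme. ssa1 and ssa2 encode the cytosolic Hsp70 proteins. Over ssa2 (SPCC1739.13, chrIII:2057084-2059331) the density was 0.359 and 0.400 tags per nt with H3K14ac, 0.907 and 0.985 with H4ac, and 0.125 and 0.179 with H3. Both marks were above H3 in every library although the 3 kinds of library have nearly equal medians, and no group overlapped another. The H3 density was the 6th lowest of 5117 genes on the nuclear chromosomes, and the H3K14ac density was also among the lowest (percentile 0.332), whereas the H4ac density was at percentile 23.8. The log2 ratio H3K14ac/H3 was 1.28 ± 0.14 (SE, adjusted p = 6.49e-06, limma) and H4ac/H3 was 2.58 ± 0.14 (adjusted p = 1.96e-08, limma), which placed H4ac/H3 at rank 15 from the highest of 5128 genes and at rank 4 of the 5117 nuclear genes (rank 4 to 65 over the fits tried). H3K14ac/H4ac was -1.30 ± 0.14 (adjusted p = 3.02e-05, limma), and its rank from the lowest was 1 or 2 in each of 16 fits, the alternatives included. With quantile normalization, H3K14ac/H3 was 0.05 (adjusted p = 0.684, limma) and no longer called, while H4ac/H3 was 1.83.

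The H3 replicates of ssa2 rest on 306 and 402 tags, and their difference of 0.48 on the log2 scale was the largest between replicates at any of the 10 genes. Without H3 replicate 1 H3K14ac/H3 was 1.04 and H4ac/H3 was 2.34, and without H3 replicate 2 they were 1.52 and 2.82. The low H3 signal covered the coding sequence and the flanking transcribed sequence alike, and 2 noncoding units antisense to ssa2 (novelncTU_477 and novelncTU_478) gave H4ac/H3 of 2.75 and 2.53. ChIP does not tell strands apart, so such antisense features share their tags with the gene. The flanking genes had the opposite sign. ppe1, whose annotated end lies 14 nt upstream of ssa2, had H3K14ac/H3 of -1.14 and H4ac/H3 of -0.82, and npp106 downstream had -0.90 and -0.85.

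The paralog ssa1 (SPAC13G7.02c, chrI:2295580-2297981) had 1.12 and 1.13 tags per nt in H3K14ac, 1.505 and 1.563 in H4ac, and 1.16 and 1.23 in H3. H4ac was above H3 in both libraries, and the H3K14ac libraries were below both H3 libraries by little. H4ac/H3 was 0.36 ± 0.03 (adjusted p = 1.18e-06, limma) and H3K14ac/H4ac was -0.44 ± 0.03 (adjusted p = 2.46e-06, limma). H3K14ac/H3 was -0.08 (adjusted p = 0.0300, limma), and this call was lost without H3K14ac replicate 1 (-0.07), H3K14ac replicate 2 (-0.09) or H3 replicate 2 (-0.05), over the coding sequence alone (-0.09), and with quantile normalization (0.01). The H3 level of ssa1 was thus near the median gene (percentile 41.2), while that of ssa2 was at percentile 0.312. The noncoding RNA gene SPNCRNA.811, antisense to ssa1, covers the 300 nt upstream of ssa1 with the triple repeat shown above, and it had an H3 density of 0.337 and 0.296 tags per nt.

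Only uniquely mapped reads were used, so near-identical paralogs could lose reads. The coding sequences of ssa1 and ssa2 were identical at 82.6% of aligned positions, beside 58.4% to 62.6% for the other pairs of the 4 Hsp70 genes. The longest stretch shared without a difference is shown because it is where a read of 50 nt could fall entirely on shared sequence. It is 56 nt long and starts at position 1324 of both coding sequences:
ssa1 and ssa2: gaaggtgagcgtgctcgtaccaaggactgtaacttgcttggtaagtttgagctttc
Of the 50-mers in each gene, 99.7% of those of ssa1 and of ssa2 occurred once in the genome, and 100% of those of the other 8 genes. The low H3 and H3K14ac densities of ssa2 stood beside an H4ac density of 0.946 over the same positions. A loss of reads as a cause of the low densities was not tested.

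In their whole-gene ratios, sks2 and bip1 were closer to the bulk of genes than ssa2, but their densities were low with all 3 antibodies. The percentiles in H3K14ac, H4ac and H3 were 12.9, 14.7 and 8.27 at sks2 and 4.04, 5.30 and 8.83 at bip1. sks2 (SPBC1709.05, chrII:1106347-1108511), whose product corresponds to the ribosome-associated Ssb Hsp70 of budding yeast, had 0.788 and 0.757 tags per nt in H3K14ac, 0.816 and 0.858 in H4ac, and 0.828 and 0.813 in H3. The 3 groups lay close together, and H4ac overlapped H3. H4ac/H3 was 0.03 ± 0.04 (adjusted p = 0.471, limma). H3K14ac/H3 was -0.09 (adjusted p = 0.0417, limma), a call that was lost after centring each library on its median (-0.08) and without H3K14ac replicate 2 (-0.06), H3 replicate 1 (-0.07) or H3 replicate 2 (-0.10). With quantile normalization the call was the opposite, at 0.15 and higher (adjusted p = 0.00766, limma). With the replicate number as a block H3K14ac/H3 had an adjusted p of 0.0523 (limma). H3K14ac/H4ac was -0.11 (adjusted p = 0.0176, limma), a call that was lost without H3K14ac replicate 2 (-0.09) or H4ac replicate 2 (-0.08) and with quantile normalization (-0.04).

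bip1 (SPAC22A12.15c, chrI:1182693-1185497) encodes the Hsp70 of the endoplasmic reticulum. It had 0.599 and 0.619 tags per nt in H3K14ac, 0.675 and 0.670 in H4ac, and 0.806 and 0.856 in H3, so both marks were below H3 with no overlap. H3K14ac/H3 was -0.44 ± 0.04 (adjusted p = 1.47e-06, limma) and H4ac/H3 was -0.30 ± 0.04 (adjusted p = 3.62e-05, limma). H3K14ac/H4ac was -0.14 (adjusted p = 0.0109, limma), and it was not called without H3K14ac replicate 1 (-0.12) or H4ac replicate 1 (-0.14), nor with quantile normalization (-0.08). Both flanking genes of bip1 had positive ratios (H3K14ac/H3 of 0.46 downstream and 0.72 upstream).

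hsp90 (SPAC926.04c, chrI:3888558-3891157), the cytosolic Hsp90 gene, resembled ssa2 in the direction of all 3 ratios. Its density was 0.571 and 0.561 tags per nt in H3K14ac, 1.04 and 1.03 in H4ac, and 0.379 and 0.443 in H3. Every H4ac and H3K14ac library was above every H3 library, and the H4ac libraries were the highest. The H3 density was the 44th lowest of 5117 nuclear genes, and the H3K14ac density was also low (percentile 2.55). H3K14ac/H3 was 0.46 ± 0.06 (adjusted p = 4.92e-05, limma), H4ac/H3 was 1.32 ± 0.06 (adjusted p = 7.76e-09, limma) and H3K14ac/H4ac was -0.86 ± 0.06 (adjusted p = 2.89e-06, limma). The rank of H3K14ac/H4ac from the lowest was between 4 and 16 over the same fits. Its H3 replicates differed by 0.22 on the log2 scale, and H4ac/H3 was 1.21 without H3 replicate 1 and 1.43 without H3 replicate 2. Among the 10 genes ssa2 and hsp90 had the lowest H3 densities, and the replicate values of neither overlapped those of the next gene. Unlike those of ssa2, the flanking genes of hsp90 shared its positive sign in both ratios to H3. The upstream gene dph4 had H3K14ac/H3 of 1.71 and H4ac/H3 of 1.51, both above hsp90, and rlc1 downstream had 0.59 and 0.93.

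sti1 (SPCC645.14c, chrIII:1261338-1263716) encodes the co-chaperone that links Hsp70 to Hsp90. Its density was 0.750 and 0.761 tags per nt in H3K14ac, 0.940 and 0.958 in H4ac, and 1.24 and 1.33 in H3. Both marks were below H3 in every library, H3K14ac the more so. H3K14ac/H3 was -0.76 ± 0.03 (adjusted p = 4.27e-09, limma) and H4ac/H3 was -0.43 ± 0.03 (adjusted p = 4.77e-07, limma). sti1 and hsp90 thus had opposite signs in both ratios to H3, and shared the sign of H3K14ac/H4ac, which was -0.33 at sti1.

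mas5 (SPBC1734.11, chrII:1080922-1083347) encodes a cytosolic Hsp40, which delivers substrates to Hsp70. Over the whole gene it had 1.13 and 1.12 tags per nt in H3K14ac, 1.35 and 1.38 in H4ac, and 0.903 and 0.925 in H3, with both marks above H3. H3K14ac/H3 was 0.30 ± 0.03 (adjusted p = 1.29e-06, limma) and H4ac/H3 was 0.57 ± 0.03 (adjusted p = 6.00e-09, limma). Over the coding sequence alone both signs were reversed, to -0.96 and -0.52, as described below.

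hsp104 (SPBC16D10.08c, chrII:3612265-3615320) encodes the disaggregase that pulls proteins out of aggregates. Its density was 0.733 and 0.781 tags per nt in H3K14ac, 1.08 and 1.18 in H4ac, and 1.19 and 1.30 in H3. H3K14ac was below H3 in every library, and the H4ac libraries lay just under the H3 libraries. H3K14ac/H3 was -0.71 ± 0.05 (adjusted p = 2.53e-07, limma) and H3K14ac/H4ac was -0.57 ± 0.05 (adjusted p = 1.14e-05, limma). H4ac/H3 was -0.14 (adjusted p = 0.0262, limma), a call that was lost without H4ac replicate 1 (-0.08) or H3 replicate 2 (-0.08) and with quantile normalization (-0.11). The antisense XUT1208, one of the noncoding RNAs degraded by the exonuclease Exo2, lies within hsp104 and had H3K14ac/H3 of 0.15 and H4ac/H3 of 0.42, while novelncTU_188 near the end of hsp104 had -1.39 and -0.34. The downstream gene sir2 had 0.87 and 0.94.

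Of the 10 genes, the small heat shock protein genes hsp16 and hsp9 had the lowest H4ac/H3. A further small heat shock protein gene, hsp20, had an H4ac/H3 of 0.51 and an H3K14ac/H3 of 0.44, both called higher. hsp16 (SPBC3E7.02c, chrII:2660139-2660992) encodes an alpha-crystallin type holdase. It had 1.14 and 1.16 tags per nt in H3K14ac, 0.711 and 0.723 in H4ac, and 1.28 and 1.29 in H3. The H4ac libraries were far below both others, and the H3K14ac libraries were a little below H3. hsp16 was the single gene of the 10 with H3K14ac called above H4ac, at 0.67 ± 0.03 (adjusted p = 1.06e-07, limma), the 59th highest of 5128 genes. H4ac/H3 was -0.83 ± 0.03 and H3K14ac/H3 was -0.16 ± 0.03, both called. XUT1135, antisense to most of hsp16, had -0.92 and -0.20 in the same ratios.

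hsp9 (SPAP8A3.04c, chrI:5319957-5320676) encodes a small protein related to Hsp12 of budding yeast. It had 0.280 and 0.275 tags per nt in H3K14ac, 0.289 and 0.290 in H4ac, and 0.878 and 0.831 in H3. Both marks were at about the same low level and far below H3 in every library. H3K14ac/H3 was -1.59 ± 0.07 (adjusted p = 2.99e-09, limma), the 41st lowest of 5128 genes, and H4ac/H3 was -1.53 ± 0.07 (adjusted p = 4.41e-09, limma), the 70th lowest. H3K14ac/H4ac was -0.06 ± 0.07 (adjusted p = 0.452, limma). These densities rest on 211 to 230 tags per acetylation library. The noncoding RNA gene SPNCRNA.1071, on the same strand, covers the 300 nt upstream of hsp9 and had an H3 density of 0.252 and 0.201 tags per nt with H3K14ac/H3 of 1.03 and H4ac/H3 of 0.96.

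**Figure D2:**
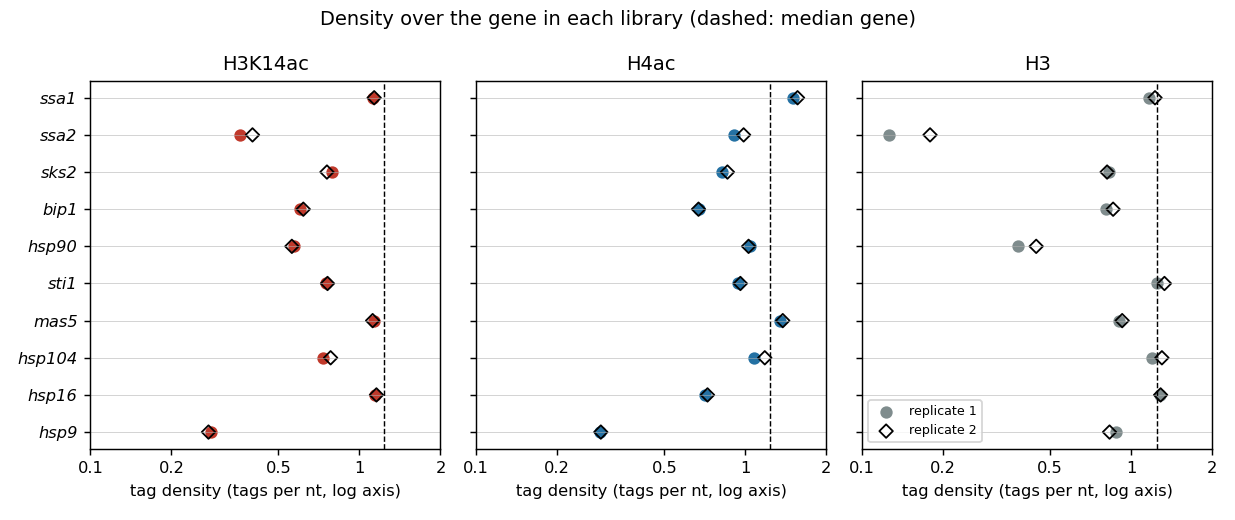
Tag density (tags per nt, log axis) over each of the 10 genes in both libraries of H3K14ac (left), H4ac (middle) and H3 (right), with replicate 1 as filled circles and replicate 2 as open diamonds; the dashed line is the median gene. H3 is lowest at ssa2 (0.125 and 0.179) and hsp90 (0.379 and 0.443), and both marks are lowest at hsp9 (0.275 to 0.290).

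In the order of H3 densities, sti1, hsp16, hsp104 and ssa1 came first, with means of 1.29 to 1.19 tags per nt and replicate values that overlapped from each gene to the next. mas5 followed at 0.914 ± 0.016 (SD, n = 2) with no overlap on either side. hsp9, bip1 and sks2 overlapped at 0.854 to 0.821, and hsp90 (0.411 ± 0.046) and ssa2 (0.152 ± 0.038) stood apart below. The highest H3 density was 8.45 times the lowest, beside 4.14 times for H3K14ac and 5.30 times for H4ac. The median H3 density of the 10 genes was 0.884 tags per nt. This order is that of whole genes, and H3 was lower outside the coding sequence at each of them. Over coding sequences alone, H3 was 1.28 at mas5 and 1.29 at hsp9, beside 1.31 at ssa1, 0.91 at sks2 and 0.99 at bip1. hsp90 (0.445) and ssa2 (0.162) were again the lowest.

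The median absolute log2 difference between replicates was 0.026 over the 10 genes for H3K14ac and 0.031 for H4ac, beside 0.030 for each over all genes. For H3 it was 0.083, beside 0.030 over all genes. Of the 10 genes, 6 were higher in replicate 2 with H3K14ac, 8 with H4ac and 8 with H3, beside 49.7%, 50.8% and 48.2% of all genes. The difference exceeded 2 SD of counting error at 2 genes in H3K14ac (7.18% of all genes), at 2 genes in H4ac (8.07%) and at 5 genes in H3 (6.44%). ssa2 and hsp104 passed that limit with all 3 antibodies and were higher in replicate 2 each time. At ssa2 the differences were 0.15 in H3K14ac, 0.12 in H4ac and 0.48 in H3, and at hsp104 they were 0.09, 0.13 and 0.12. hsp90 (0.22), sti1 (0.094) and bip1 (0.087) passed it in H3 alone.

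**Figure D3:**
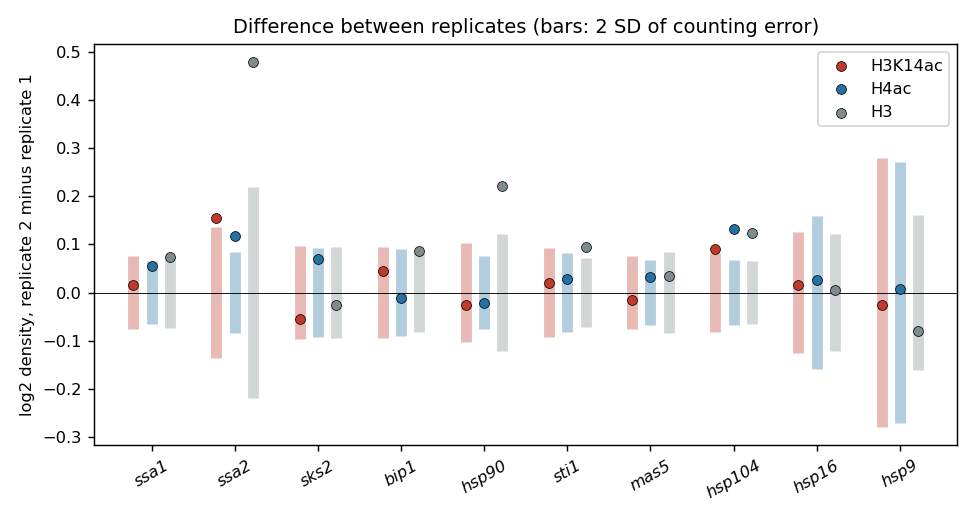
Log2 density of replicate 2 minus replicate 1 (vertical axis) for the 10 genes with H3K14ac (red), H4ac (blue) and H3 (grey); the bars reach 2 SD of counting error on either side of 0. The H3 points of ssa2 (0.48) and hsp90 (0.22) lie well outside their bars, and most acetylation points lie inside.

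Each of the 10 genes has 1 uninterrupted coding sequence, with 304 to 1202 nt of the annotated gene outside it, so the gene could be divided into coding sequence and the rest. Over coding sequences alone, H3K14ac/H3 was higher at 2 of the 10 genes (ssa2 and hsp90), against 40.2% of all genes, and lower at 7, against 52.9%. H4ac/H3 was higher at 3 (ssa1, ssa2 and hsp90), against 38.3%, and lower at 7, against 54.6%. H3K14ac/H4ac was lower at 6, against 32.4%, and higher at 1 (hsp16), against 34.8%. The 3 genes without a call in that last comparison were sks2 (0.03), bip1 (0.07) and hsp9 (-0.07).

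The sign of mas5 came from outside its coding sequence. Outside it, over 1202 nt, the density was 1.62 and 1.59 tags per nt in H3K14ac, 1.84 and 1.84 in H4ac, and 0.537 and 0.552 in H3. Over the coding sequence it was 0.652 and 0.654 in H3K14ac, 0.860 and 0.922 in H4ac, and 1.26 and 1.29 in H3, so that the order of marks and H3 was turned round within 1 gene. The coding ratio H3K14ac/H3 was -0.96 ± 0.04 (adjusted p = 2.79e-09, limma) and H4ac/H3 was -0.52 ± 0.04 (adjusted p = 4.19e-07, limma). The antisense RNA gene SPNCRNA.1409 overlaps the first 421 nt of mas5 and covers its upstream 300 nt, and had H3K14ac/H3 of 2.52 and H4ac/H3 of 2.42 with an H3 density of 0.326 in each replicate.

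sti1, sks2, bip1, hsp104 and hsp90 also had higher ratios outside the coding sequence, by 1.89, 1.65, 1.12, 1.09 and 1.16 on the log2 scale for H3K14ac/H3, beside 2.50 for mas5. The sign of both ratios turned from positive outside the coding sequence to negative over it at mas5, sti1, sks2, bip1 and hsp104. In H3K14ac/H3 the values were 0.74 outside and -1.16 over the coding sequence at sti1, 0.44 and -0.69 at bip1, and 0.32 and -0.77 at hsp104. At sks2, H4ac/H3 was 2.11 outside the coding sequence and -0.28 over it, which left 0.03 for the whole gene. At ssa1, ssa2, hsp16 and hsp9 the differences for H3K14ac/H3 were 0.03, -0.0034, -0.16 and 0.17, so that the low H3 of ssa2 and the low acetylation of hsp9 held over both parts of the gene. Among 2349 genes with 1 coding sequence and at least 200 nt outside it, the median difference was 0.88 (H3K14ac/H3) and 0.91 (H4ac/H3), and the ratio was higher outside in 77.0% and 82.9% of them. Their medians made the same turn, from 0.62 outside to -0.34 over the coding sequence (H3K14ac/H3) and from 0.67 to -0.34 (H4ac/H3). H3 outside the coding sequence was 0.328 to 0.622 of that over it at the 10 genes, with a median of 0.565 over the 2349 genes.

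**Figure D4:**
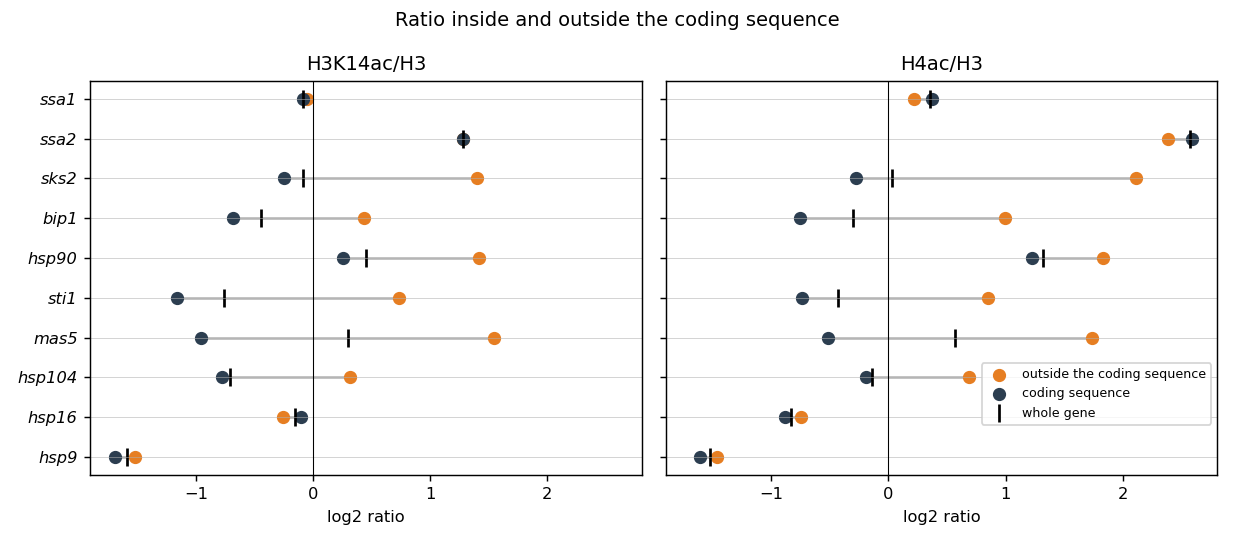
Log2 H3K14ac/H3 (left) and H4ac/H3 (right) of the 10 genes outside the coding sequence (orange), over it (dark) and over the whole gene (black tick), from mean log2 densities of 2 libraries each. mas5 (1.54 outside against -0.96 over the coding sequence in H3K14ac/H3) and sks2 (2.11 against -0.28 in H4ac/H3) span 0, as do sti1, bip1 and hsp104 in both panels, whereas ssa1, ssa2, hsp16 and hsp9 vary little.

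**Figure D5:**
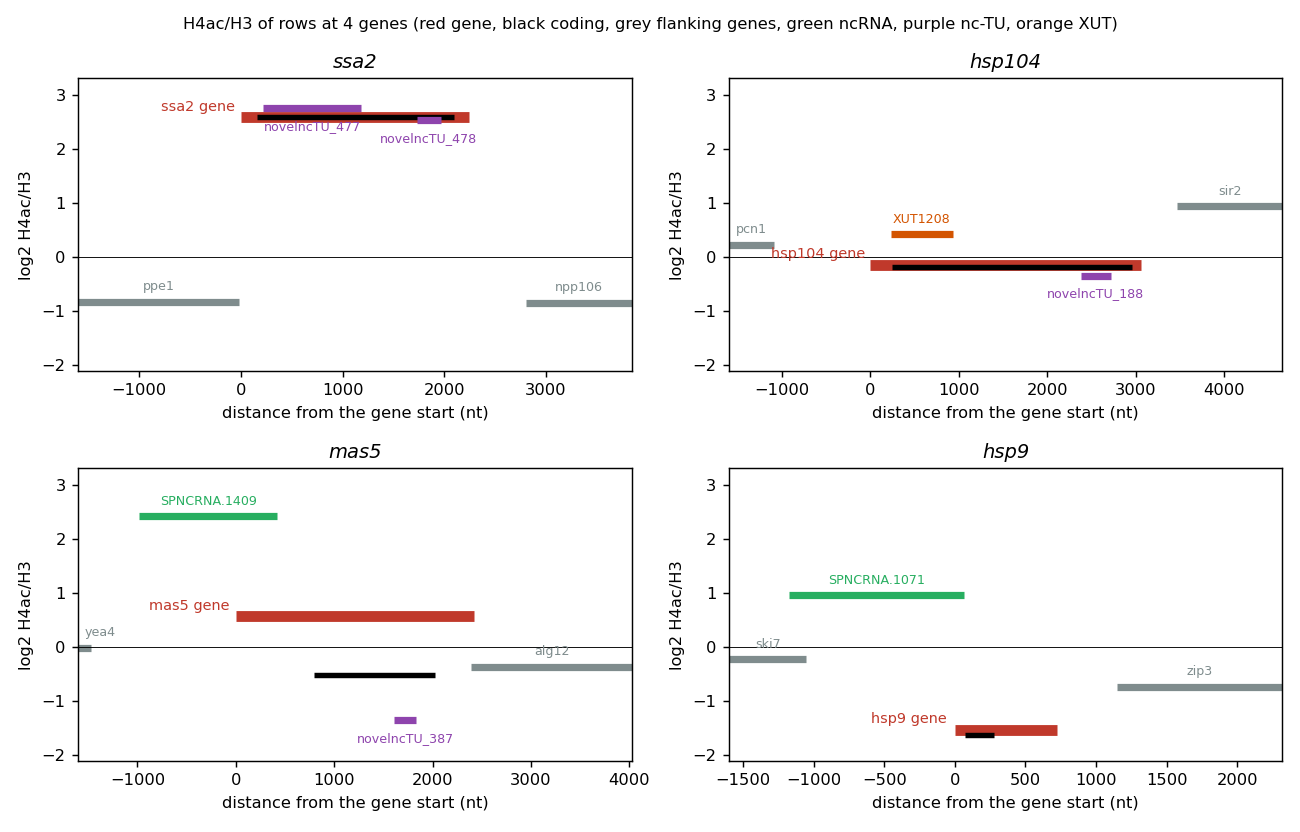
Log2 H4ac/H3 (vertical axis) of annotated features against distance from the gene start in the direction of transcription (nt, horizontal axis) at ssa2, hsp104, mas5 and hsp9, with the gene in red, its coding sequence in black, flanking genes in grey and noncoding features in green, purple or orange. ssa2 (2.58) stands between flanks of -0.82 and -0.85, mas5 is overlapped at its start by SPNCRNA.1409 (2.42), and hsp9 (-1.53) follows SPNCRNA.1071 (0.96).

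Further chaperone genes were examined from a list of 27 symbols, of which 26 were found in the table. H3K14ac/H3 was higher at 6 and lower at 18 of the 26 (47.4% and 45.9% of all genes), with a median of -0.52 beside 0.01 over all genes. H4ac/H3 was higher at 7 and lower at 16 (47.1% and 45.5% of all genes), with a median of -0.32 beside 0.01. H3K14ac/H4ac was higher at 2 and lower at 14 (32.9% and 36.6% of all genes), with a median of -0.12 beside -0.01. All 8 subunits of the cytosolic chaperonin that folds actin and tubulin (cct1 to cct8) were lower for both marks, with a median H3K14ac/H3 of -0.65 and a median H4ac/H3 of -0.62, and their H3 densities were 1.23 to 1.46 tags per nt.

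hsf1, the gene of the heat shock factor, had 0.553 and 0.539 tags per nt in H3K14ac, 0.552 and 0.592 in H4ac, and 1.33 and 1.32 in H3. Both marks were far below H3, and the ratios of -1.26 and -1.20 were the lowest of the 26 genes. Next lowest was ssc1, the mitochondrial Hsp70 gene, with an H3K14ac/H3 of -1.19 and an H4ac/H3 of -0.91. The highest were those of wis2, a cyclophilin-type co-chaperone gene, with 0.59 and 0.88. The H3 density was 0.709 tags per nt at the lowest of the 26, hsp60, the mitochondrial chaperonin gene, which is above that of ssa2 and hsp90.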

How the data were processed

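Wild-type fission yeast chromatin was precipitated with antibodies to H3K14ac, H4ac and H3, with 2 libraries each. The authors mapped single-end reads uniquely with Bowtie2, per the labels to assembly ASM294v2, and deposited the signal of each annotated feature as tags per nt. How tags were assigned to features, and how the ChIP libraries were scaled, is not given in the sources used here. No division by input or H3 enters this signal. Density times length gave whole tags after division by 1 step per library in 100% of values (tolerance 0.01 tags), and recovered tags over genes summed to 14014219 to 15214393. The 3 pooled columns were not used.

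Genes reaching 0.05 tags per nt in 2 or more libraries were fitted in limma (version 3.58.1 under R 4.3.3) on log2(density + 0.01), with 1 mean per antibody and a trended empirical Bayes step, and the fit was tested on simulated data. Tests were 2-sided. Chromosome sequences came from ASM294v3. The genes named are the 10 genes, the heat shock factor gene, the extremes of the listed further chaperones (1 of 27 symbols was not matched), overlapping noncoding features, and neighbours of opposite sign; other genes named were chosen after their values were seen. The 10 genes and the lists were chosen with earlier results of these data known. Alternatives were pseudocounts of 0.001 and 0.1, no filter, nuclear chromosomes only, centring, quantile normalization, a replicate block, voom on recovered tags, coding sequences, a 1.5-fold minimum, and leaving out each library.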

Additional observations from a re-analysis of the deposited data

How the results depend on the processing

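Of 30 ratios (3 for each of the 10 genes), 11 kept direction and call under all 16 alternatives, 21 when the 1.5-fold minimum was set aside, and 23 when coding sequences were set aside too. With that minimum, genes higher and lower were 1274 and 1046 (H3K14ac/H3), 1174 and 955 (H4ac/H3), and 88 and 38 (H3K14ac/H4ac), and of the 10 genes 1 was higher and 3 lower, 2 higher and 2 lower, and 1 higher (hsp16) and 2 lower (ssa2 and hsp90) in the same order. Directions were reversed over coding sequences at mas5 (-0.96 for H3K14ac/H3, -0.52 for H4ac/H3), sks2 (-0.28 for H4ac/H3, 0.0283 for H3K14ac/H4ac) and bip1 (0.0722 for H3K14ac/H4ac), with quantile normalization at ssa1 (0.0070) and sks2 (0.15) for H3K14ac/H3, and at sks2 for H4ac/H3 when single libraries were left out (-0.0074 to 0.0632, the lowest without H4ac replicate 2). With quantile normalization, H3K14ac/H3 was called higher at sks2 (adjusted p = 0.00766, limma) and was not called at ssa1. The cause of these reversals was not tested. The median H3 density of the 10 genes was 1.28 over coding sequences, and 0.891 without either H3 replicate.

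Replicate numbers of different antibodies mark no shared culture in the labels, so the numbers were not taken to pair the libraries. Deviations correlated by 0.018 (H3K14ac and H3), 0.00061 (H4ac and H3) and 0.142 (H3K14ac and H4ac) over 5128 genes. These correlations cannot decide whether cultures were shared. The median absolute log2 difference between replicates (0.030 for each antibody) was below the median counting SD (0.040 to 0.041). With a replicate block, higher and lower genes were 2432 and 2352 (H3K14ac/H3), 2418 and 2336 (H4ac/H3), and 1697 and 1873 (H3K14ac/H4ac), and of the 30 ratios 1 call changed (sks2, H3K14ac/H3). Depth limits hsp9 most. The H3 value of ssa2 is limited by the difference between its replicates (0.48, beside a counting SD of 0.109).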

Other observations

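The promoters of ssa1, ssa2 and hsp90, which carry the GAA repeats, also shared the 12-nt run agggttagggtt at 56, 116 and 54 nt upstream of the gene start, as the sequences in the report show. This run was chosen after the promoters were seen. It occurred in 15 of 5117 promoters (0.293%), of which 6 also held a pair of GAA repeats. Such a pair occurred in 19.8% of all promoters. Both counts include ssa1, ssa2 and hsp90, from which the run was taken, so they do not link the run to the repeats. The 15 also include the promoters of 6 core histone genes (hhf1, hht1, hhf2, hhf3, hta1 and htb1). The run is given as a description of sequence, and no factor was examined.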
